A study of Mus musculus with 6 samples.

Results

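The genes described here are the cytochrome P450 genes of families 1 to 4, measured in adrenal RNA of adult female mice. They were taken as every probe set of the array (a group of probes that measures a transcript) whose platform annotation gave exactly 1 gene symbol beginning with Cyp, a digit from 1 to 4 and a letter. Of 48 such genes, 43 reached a log2 value of 6 on 3 or more of the 6 arrays, out of 14727 genes that passed the same filter in the whole table. All 43 were found by Entrez number in RefSeq under the same symbol, and each was measured by 1 probe set. Cyp2c66, Cyp2c67, Cyp4a12a, Cyp4a12b and Cyp2b23 did not pass the filter and were not tested, and both of their group means lay under the array background. The 43 genes fell into 17 subfamilies, with 2 genes in family 1, 26 in family 2, 4 in family 3 and 11 in family 4.

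The study asked how adult adrenal gene expression differs after a glutamate receptor has been blocked in early life. The CGP group was female C57Bl/6J offspring of dams that had received CGP 39551, which blocks the NMDA type of glutamate receptor (named for its ligand N-methyl-D-aspartate), by mouth at 5 mg/kg body weight from pregnancy to the end of weaning. The control group was female C57Bl/6J offspring labelled as controls, with no further description of what their dams received. Adrenals of both groups were frozen at 21 weeks of age, RNA of 18 mice was pooled in each group, and 3 Affymetrix whole-transcript arrays were hybridised per group. The labels do not say whether the 3 arrays of a group carried separate pools, so the p-values hold only the spread from array to array, which may be technical.

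Cytochrome P450 enzymes hold a haem group that splits molecular oxygen and inserts a single oxygen atom into a substrate, using electrons handed on from NADPH. Families 1 to 3 are best known from the liver, where they oxidise drugs, carcinogens, bile acids and steroids, and several of the enzymes also turn arachidonic acid into signalling epoxides. Family 4 enzymes hydroxylate the end of fatty acid chains. The adrenal cortex is known above all for P450 enzymes of other families, which make steroid hormones.

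The arrays were alike in their overall values, with medians of 7.905 to 7.962 (log2). A background was set for each array from probe sets of olfactory and related sensory receptors, at 6.417 to 6.555 on the CGP arrays and 6.489 to 6.648 on the control arrays. Arrays differed from each other over all tested probe sets by a standard deviation of 0.1025 to 0.128 among the CGP arrays, 0.1354 to 0.1765 among the control arrays and 0.16 to 0.2177 between the groups. Markers of adrenal cortex (10 tested) and medulla (9 tested) were measured in all arrays, and none of these 19 passed the test between groups (limma, adjusted p under 0.05; 1 cortex gene was higher and 1 medulla gene was lower at an unadjusted p under 0.05). At that unadjusted threshold, 1266 of all 14727 genes were lower and 1549 higher. The steroid synthesis genes Cyp11b2 and Cyp17a1 are not among the cortex and medulla markers and did pass at the adjusted one. Cyp11b2 was higher (log2 fold change 0.50, limma adjusted p = 0.00144) and Cyp17a1 lower (-1.31, limma adjusted p = 7.15e-05).

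Of the 43 P450 genes, 20 were lower in the CGP adrenals, 0 were higher, and the test was not passed by 23 (limma over all tested probe sets, adjusted p under 0.05). Among all 14727 genes, 1.7% were called lower, 1.94% higher and 3.63% in either direction, and the corresponding shares of the 16034 probe sets were 1.59%, 1.94% and 3.53%. At an unadjusted p under 0.05, 24 of the 43 were lower and 2, Cyp2e1 and Cyp2d9, were higher. At that threshold, 1266 of all 14727 genes were lower and 1549 higher. The median log2 fold change of the 43 was -0.32 (CGP minus control), against -0.01 for all genes tested. It was -0.59 when only genes reaching a log2 value of 7 were kept. That filter kept Cyp1a2, Cyp2a12, Cyp2c50, Cyp2c54 and Cyp2j5 only through their control arrays, so these had to be lower. At a minimum of 1.5-fold in the deposited values, 18 of the 43 were lower and 0 higher, where the background shares were 0.801% and 0.163%. With arrays under background set to background, a step chosen after seeing the data, 14 were left. Cyp2b13, Cyp2c70, Cyp3a13 and Cyp2j5 then fell short of 1.5-fold. The arrays of the groups did not overlap for 24 genes with CGP lower and 3 with CGP higher, where 12.6% and 13.7% of all genes were so separated. Cyp2b13 passed the filter on low values only through the control arrays and so had to differ, yet it is included in each count of lower genes given here. Cyp2c70, also in these counts, reached the filter value on 1 CGP array and 3 control arrays. In RNA of a whole gland, fewer cells of a type and less RNA per cell cannot be told apart.

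**Figure D1:**
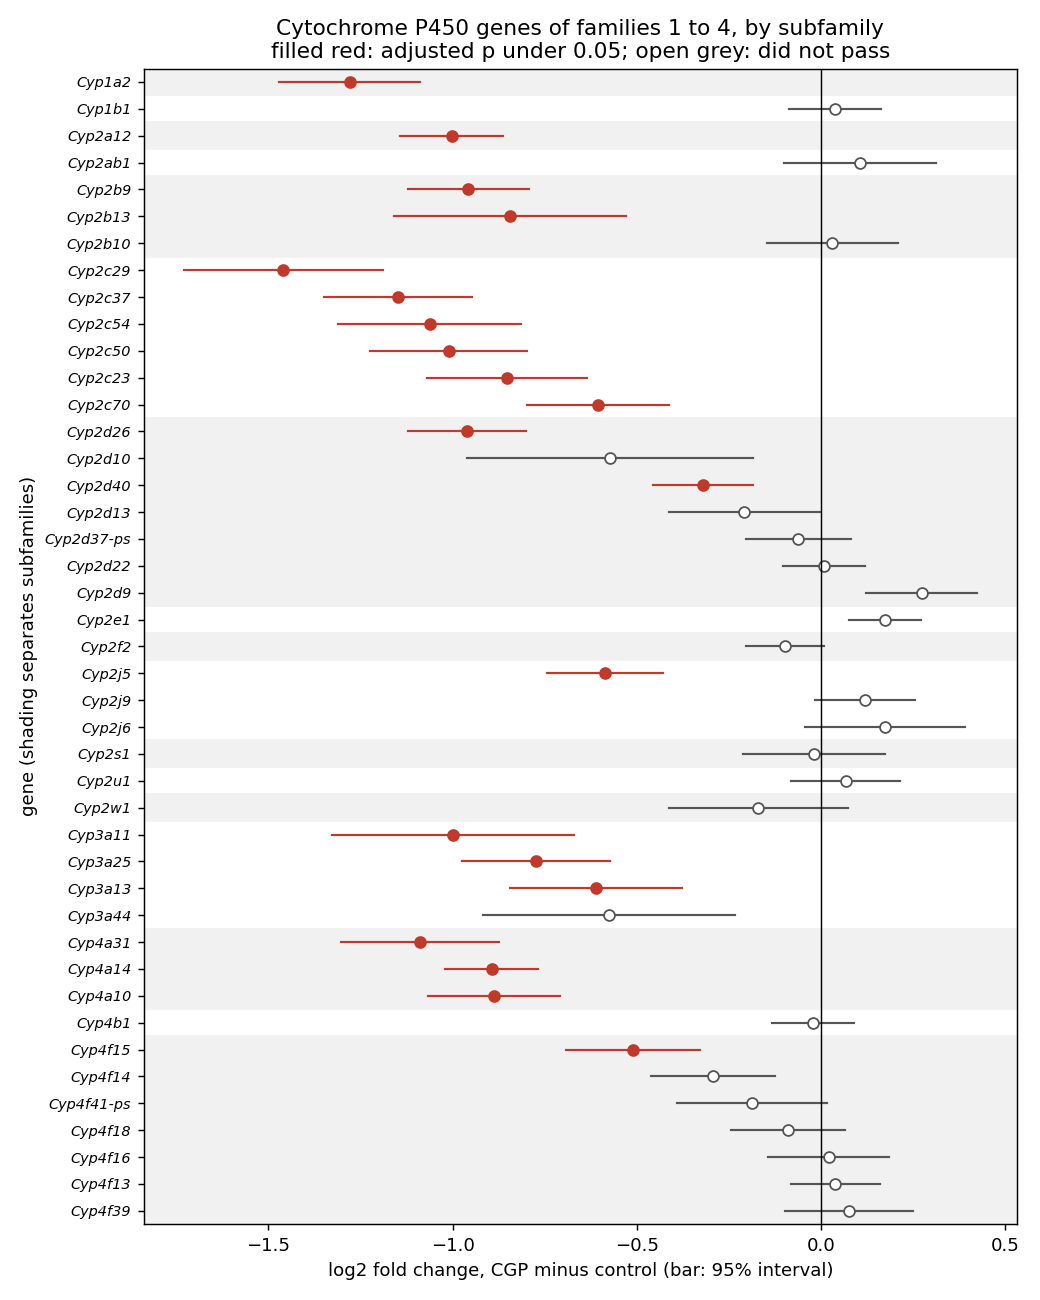
Log2 fold change (CGP minus control, horizontal axis) of each of the 43 P450 genes (vertical axis, ordered by subfamily, shading separating subfamilies), with 95% intervals. Filled red points are the 20 genes with an adjusted p under 0.05, all left of zero. Open points are the 23 that did not pass, among them the highest value, 0.27 for Cyp2d9.

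Genes that mark hepatocytes moved with the lower P450 genes. The lists used here were chosen with earlier results of these data known. Of a list of 40 hepatocyte genes without any P450, 36 were tested and 36 were lower in the CGP adrenals, with a median log2 fold change of -0.91. Over all genes, 1.7% were called lower and 1.94% higher. The log2 of their summed level was 15.02 to 15.05 on the CGP arrays and 15.79 to 15.81 on the control arrays, and none of them had both group means under background. Albumin (Alb), the main plasma protein made by hepatocytes, averaged 12.98 ± 0.0532 on the CGP arrays and 13.4 ± 0.0151 on the control arrays (SD, n = 3 each). Adipocyte genes moved the other way, with 15 of 18 tested higher, a median of 0.54, and a log2 summed level of 15.55 to 15.57 on the CGP arrays and 15.06 to 15.09 on the control arrays. Of 7 tested kidney tubule genes, 0 passed in limma, also at an unadjusted p under 0.05, and their log2 summed level was 9.65 to 9.718 on the CGP arrays and 9.625 to 9.864 on the control arrays. Endothelial (8 tested) and macrophage genes (8 tested) also gave 0 calls in limma, with 1 endothelial gene higher and 2 macrophage genes lower at an unadjusted p under 0.05. Of all 14727 genes, 1266 were lower and 1549 higher at that unadjusted threshold. The part of any of these cell types in the P450 values was not tested.

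Promoter sequence was available in a RefSeq table (build GRCm38.p6) for 33 of the 43 genes, as windows from 250 bases before to 50 after the transcription start. Among 12 letter patterns searched on both strands, the letters TGNACTTTG, known as a binding pattern of the hepatocyte nuclear receptor HNF4A, were found in 5 of 15 windows of lower genes, in 1 of 18 windows of the other genes and in 1.64% of the windows of 27025 genes. The windows with a match are shown here because the genes with it lie in 3 different subfamilies, and 3 windows without a match are shown beside them, those of Cyp2c29, which was lower with all arrays above background, and of Cyp2e1 and Cyp2f2, which did not pass the test. Each line gives the 120 bases before the start, read 5′ to 3′ along the gene's strand, with the match in capitals.
Cyp2c37 (chr19:39992304-39992423, plus strand): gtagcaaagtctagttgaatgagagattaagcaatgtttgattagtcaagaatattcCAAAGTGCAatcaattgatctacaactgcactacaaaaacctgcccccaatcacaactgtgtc
Cyp2c50 (chr19:40089559-40089678, plus strand): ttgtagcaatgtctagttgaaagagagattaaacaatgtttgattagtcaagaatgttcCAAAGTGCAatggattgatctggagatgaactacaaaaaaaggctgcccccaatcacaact
Cyp2c70 (chr19:40187287-40187406, minus strand): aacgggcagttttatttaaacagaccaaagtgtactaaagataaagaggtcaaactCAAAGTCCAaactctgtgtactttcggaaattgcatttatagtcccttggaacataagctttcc
Cyp2d26 (chr15:82794246-82794365, minus strand): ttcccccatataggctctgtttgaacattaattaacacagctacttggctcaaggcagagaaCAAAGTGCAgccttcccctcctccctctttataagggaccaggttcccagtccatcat
Cyp3a11 (chr5:145879855-145879974, minus strand): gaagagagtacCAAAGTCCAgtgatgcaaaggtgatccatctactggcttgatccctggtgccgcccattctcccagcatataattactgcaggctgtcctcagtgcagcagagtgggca
Cyp3a44 (chr5:145805875-145805994, minus strand): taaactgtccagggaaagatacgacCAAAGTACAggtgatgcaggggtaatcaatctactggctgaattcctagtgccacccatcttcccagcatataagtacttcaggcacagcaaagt
Cyp2c29 (chr19:39286965-39287084, plus strand): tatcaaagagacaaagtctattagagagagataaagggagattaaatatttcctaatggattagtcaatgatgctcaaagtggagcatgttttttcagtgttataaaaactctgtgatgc
Cyp2e1 (chr7:140763699-140763818, plus strand): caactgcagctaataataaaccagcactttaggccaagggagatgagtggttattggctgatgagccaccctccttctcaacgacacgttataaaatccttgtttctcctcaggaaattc
Cyp2f2 (chr7:27119835-27119954, plus strand): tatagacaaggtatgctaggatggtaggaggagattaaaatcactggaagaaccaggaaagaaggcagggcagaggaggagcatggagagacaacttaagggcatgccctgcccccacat
In every case the match lay on the strand opposite to the gene, so that the capitals read as the reverse complement of TGNACTTTG. It ended 49 to 55 bases before the start in Cyp2d26, Cyp2c50, Cyp2c37 and Cyp2c70, and 100 and 86 bases before it in Cyp3a11 and Cyp3a44. Cyp2c37 and Cyp2c50 are near neighbours on chromosome 19, as Cyp3a11 and Cyp3a44 are on chromosome 5, and such windows share much of their sequence, so these matches are not independent of each other. A match is a description of the letters and not a binding site.

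The other patterns gave the following counts. The TATA box letters TATAAA stood in 8 of 15 windows of lower genes and 4 of 18 others, against 15.7% of all genes. The core GCGTG bound by the aryl hydrocarbon receptor stood in 0 of 15 and 8 of 18, against 35.2%. The forkhead letters TGTTTAC were in 2 of 15 and 2 of 18 (4.05% of all), TGTTTGC in 0 and 0 (5.76%), and the nuclear receptor letters AGTTCA in 2 and 1 (15.7%). TTATGCAA was in 0 and 2 (0.888%). TTATGTAA (1.11% of all), TTGCGCAA (0.207%), TTACGCAA (0.192%), the HNF1 pattern (0.47%) and a direct repeat bound by nuclear receptors (0.0185%) were in none. No test was made on any of these counts.

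Family 1 was split. Cyp1a2, the caffeine and aromatic amine oxidase of liver and a target of the aryl hydrocarbon receptor, had log2 values of 6.360, 6.362 and 6.400 on the CGP arrays, against 7.551, 7.557 and 7.851 on the control arrays. All 3 CGP arrays lay under the array background and all 3 control arrays above it, so the fold is a bound, and Cyp1a2 was at least 2.26-fold lower in the CGP adrenals (log2 fold change -1.28, SE 0.0822, limma adjusted p = 0.000135). Cyp1b1, which oxidises oestradiol and polycyclic hydrocarbons and is known from rat adrenal to respond to the pituitary hormone ACTH, had 10, 9.992 and 9.945 on the CGP arrays and 9.949, 9.859 and 10.02 on the control arrays. These values overlapped, and the 95% interval of the Cyp1b1 difference ran from -0.09 to 0.16 (log2 fold change 0.04, limma adjusted p = 0.728). Targets of the same receptor outside the P450 genes gave 0 calls among 2 tested, also at an unadjusted p under 0.05, with Tiparp at 8.086 ± 0.061 on the CGP arrays and 8.055 ± 0.129 on the control arrays (SD, n = 3 each) and Nqo1 under background.

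All 6 tested Cyp2c genes were lower. Their median log2 fold change was -1.04 and the range was -1.46 to -0.60. The median level of the 6 was 6.969, 6.989 and 7.065 on the CGP arrays and 8.150, 7.858 and 8.030 on the control arrays. Mouse Cyp2c enzymes are known for turning arachidonic acid into epoxides and hydroxy acids, and Cyp2c70 makes the muricholic acids, bile acids typical of mice and rats.

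Cyp2c29, a liver epoxygenase inducible by phenobarbital, had 7.248, 7.516 and 7.353 on the CGP arrays, against 8.977, 8.571 and 8.950 on the control arrays. It was 2.75-fold lower (log2 fold change -1.46, SE 0.116, limma adjusted p = 0.000388). Cyp2c37 had 7.554, 7.537 and 7.518 on the CGP arrays and 8.886, 8.642 and 8.527 on the control arrays, a difference of 2.22-fold (SE 0.0864 on the log2 scale, limma adjusted p = 0.000289). In both genes every CGP array lay more than 1 log2 unit below the control mean. Cyp2c50 had 6.691, 6.536 and 6.776 on the CGP arrays and 7.859, 7.597 and 7.580 on the control arrays (2.02-fold, limma adjusted p = 0.00075). Cyp2c54 had 6.403, 6.340 and 6.331 on the CGP arrays, all under background, and 7.691, 7.321 and 7.248 on the control arrays, so that it was at least 1.92-fold lower (limma adjusted p = 0.00142). For each of these 4 genes control array 1 was at the top of its group.

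The other tested Cyp2c genes were Cyp2c23 and Cyp2c70. Cyp2c23, an arachidonic acid epoxygenase of kidney and liver, averaged 7.494 ± 0.0486 on the CGP arrays and 8.346 ± 0.198 on the control arrays (SD, n = 3 each), 1.81-fold lower (limma adjusted p = 0.00225). It is the Cyp2c member that in the RefSeq order stands away from the row of Cyp2c genes on chromosome 19, between Cpn1 and Erlin1. Cyp2c70 averaged 6.038 ± 0.102 on the CGP arrays, all under background, and 6.643 ± 0.143 on the control arrays, 1 of them under background, and was at least 1.15-fold lower (limma adjusted p = 0.00749). Cyp2c37, Cyp2c54, Cyp2c50 and Cyp2c70 follow each other directly among the protein-coding genes of the RefSeq order. Genes of this subfamily are closely related, so a probe set named for 1 gene may take up signal of its relatives, which was not tested.

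**Figure D2:**
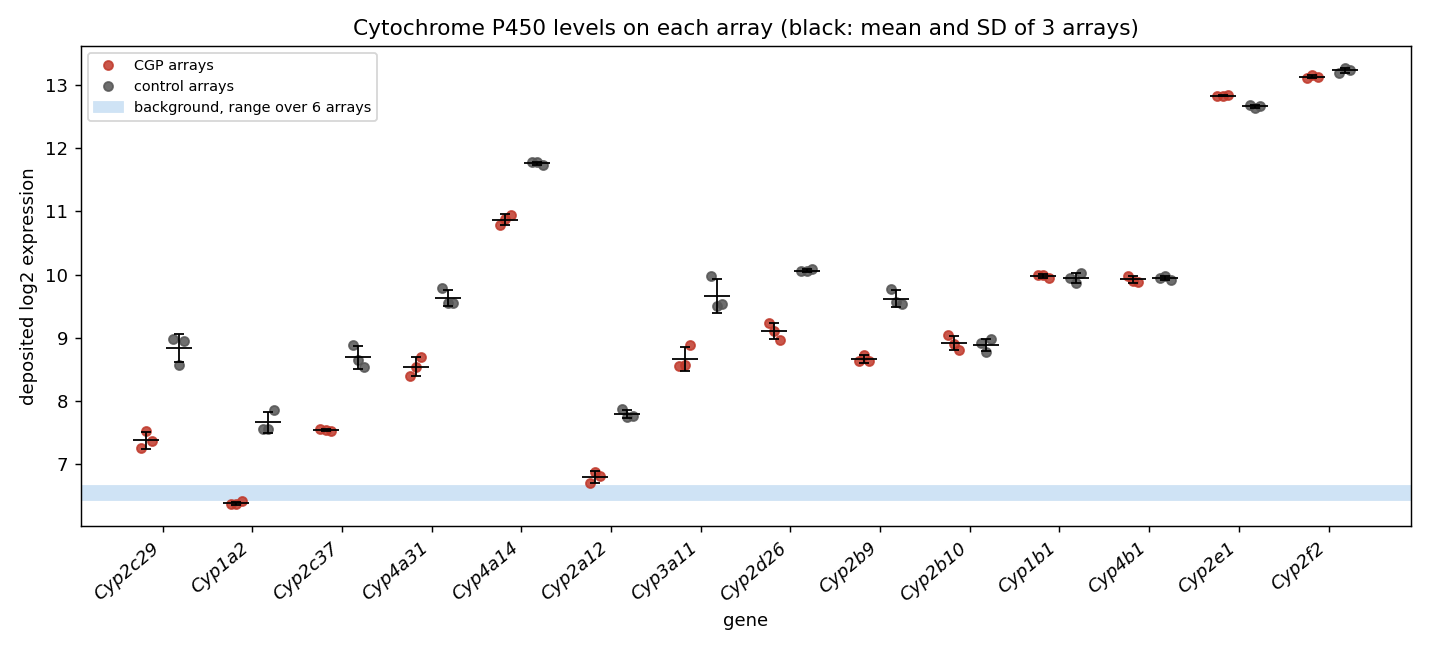
Deposited log2 expression (vertical axis) of 14 P450 genes (horizontal axis) on each array, CGP arrays in red and control arrays in grey, with the mean and SD of 3 arrays in black and the range of array backgrounds in blue. The points of the 9 genes on the left do not overlap between groups, those of Cyp2b10, Cyp1b1 and Cyp4b1 do, and those of Cyp2e1 and Cyp2f2 do not. Over all genes, 12.6% did not overlap with CGP lower and 13.7% with CGP higher.

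The Cyp2a and Cyp2b genes act on steroids, bile acids and drugs, and most of those tested were lower. Cyp2a12, a liver hydroxylase of bile acids and testosterone, had 6.695, 6.869 and 6.801 on the CGP arrays and 7.867, 7.747 and 7.761 on the control arrays. The groups did not overlap, and Cyp2a12 was 2.00-fold lower (log2 fold change -1.003, SE 0.0609, limma adjusted p = 0.000112). Cyp2b9, which in mouse liver is known to be higher in females, had 8.623, 8.728 and 8.635 on the CGP arrays and 9.766, 9.558 and 9.534 on the control arrays, 1.94-fold lower (SE 0.0709 on the log2 scale, limma adjusted p = 0.000269).

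The other Cyp2b genes tested were Cyp2b13 and Cyp2b10. Cyp2b13, also female-biased in mouse liver, had 5.521, 5.736 and 5.568 on the CGP arrays and 6.783, 6.350 and 6.224 on the control arrays, with both group means under background. It was called lower (limma adjusted p = 0.0161), but it entered the test only through its control arrays and no fold is given, and the call was lost without CGP array 1 (adjusted p = 0.0679) or CGP array 3 (adjusted p = 0.0899). Cyp2b10, the standard target of the xenobiotic receptor CAR and named here after its values were seen, had 9.040, 8.898 and 8.804 on the CGP arrays and 8.909, 8.771 and 8.970 on the control arrays. Its groups overlapped, and the 95% interval of its difference, -0.15 to 0.21, held no fall of the size seen in Cyp2b9, whose interval was -1.12 to -0.79. Cyp2b10, Cyp2b13 and Cyp2b9 are direct neighbours in the RefSeq order.

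The Cyp2d genes, relatives of the human drug oxidase CYP2D6, gave 2 lower and 5 not passing of 7 tested, with values from -0.96 to 0.27. Cyp2d26 had 9.234, 9.109 and 8.968 on the CGP arrays and 10.05, 10.05 and 10.09 on the control arrays, 1.95-fold lower (SE 0.0692 on the log2 scale, limma adjusted p = 0.000236). Its neighbour Cyp2d40 averaged 7.253 ± 0.0496 on the CGP arrays and 7.573 ± 0.0876 on the control arrays (SD, n = 3 each), a fall of 1.25-fold (limma adjusted p = 0.0271). The Cyp2d40 call was lost without control array 2, with an adjusted p of 0.0594, and without CGP array 1, 2 or 3, with values of 0.0918, 0.133 and 0.0766.

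At the other end, Cyp2d9, a male-biased testosterone hydroxylase of mouse liver, had 6.698, 6.655 and 6.674 on the CGP arrays and 6.534, 6.297 and 6.379 on the control arrays. The groups did not overlap but 2 control arrays were under background, and the difference did not pass (log2 fold change 0.27, limma adjusted p = 0.0672), although it did without control array 1 (0.34, adjusted p = 0.0155). Cyp2d10, the direct neighbour of Cyp2d9, was at 6.563 ± 0.358 on the CGP arrays and 7.136 ± 0.167 on the control arrays (SD, n = 3 each; limma adjusted p = 0.118). Cyp2d22 was at 10.85 ± 0.0308 on the CGP arrays and 10.84 ± 0.0524 on the control arrays, with a 95% interval of -0.10 to 0.12. The pseudogene Cyp2d37-ps (-0.06) and Cyp2d13 (-0.21, both means under background) did not pass either.

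Cyp2e and Cyp2f have 1 tested gene each, and neither passed. Cyp2e1, the ethanol and acetone oxidase of liver, had 12.84, 12.83 and 12.85 on the CGP arrays and 12.69, 12.64 and 12.67 on the control arrays. All CGP arrays lay above all control arrays, but the difference did not pass (log2 fold change 0.17, SE 0.042, 95% interval 0.08 to 0.27, limma adjusted p = 0.0706). Cyp2f2, which is known to bioactivate naphthalene in mouse airway, had 13.12, 13.16 and 13.14 on the CGP arrays and 13.20, 13.28 and 13.24 on the control arrays. These did not overlap either, with CGP lower, and the Cyp2f2 interval was -0.20 to 0.01 (log2 fold change -0.10, limma adjusted p = 0.283). Cyp2f2 lies next to Cyp2a12 on chromosome 7, and the interval of Cyp2a12 was -1.14 to -0.86.

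Among the Cyp2j genes, which include arachidonic acid epoxygenases, 1 of 3 passed. Cyp2j5, an epoxygenase of kidney and liver, had 6.667, 6.567 and 6.438 on the CGP arrays, 1 of them under background, and 7.214, 7.119 and 7.097 on the control arrays. It was at least 1.49-fold lower (log2 fold change -0.59, SE 0.0677, limma adjusted p = 0.00301). Its direct neighbour Cyp2j9 had 6.431, 6.472 and 6.431 on the CGP arrays and 6.227, 6.328 and 6.421 on the control arrays, with both means under background and no overlap (0.12, limma adjusted p = 0.307). Cyp2j6 had 6.620, 6.632 and 6.697 on the CGP arrays and 6.535, 6.255 and 6.641 on the control arrays, which overlapped (0.17, limma adjusted p = 0.357).

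The remaining single members of family 2 did not pass. Cyp2u1, a fatty acid hydroxylase, had 7.657, 7.798 and 7.703 on the CGP arrays and 7.586, 7.613 and 7.760 on the control arrays (log2 fold change 0.07, limma adjusted p = 0.604). Cyp2s1, an enzyme of epithelia, had 6.566, 6.585 and 6.631 on the CGP arrays and 6.438, 6.782 and 6.618 on the control arrays (-0.02, limma adjusted p = 0.921). Cyp2w1 had 6.575, 6.596 and 6.611 on the CGP arrays and 6.497, 6.923 and 6.875 on the control arrays (-0.17, limma adjusted p = 0.413). In each of these the groups overlapped, and for Cyp2w1 the low control array was array 1, without which the difference passed (-0.31, adjusted p = 0.0184). Cyp2ab1 had 6.325, 6.191 and 5.975 on the CGP arrays and 6.054, 6.135 and 5.985 on the control arrays, all under background (0.11, limma adjusted p = 0.552).

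The Cyp3a enzymes are the main oxidases of drugs and steroids in liver and gut and are controlled by the xenobiotic receptor PXR (Nr1i2). Of 4 tested, 3 were lower, and the median level of the 4 was 6.866, 6.911 and 6.970 on the CGP arrays and 7.746, 7.482 and 7.594 on the control arrays. Cyp3a11, the main Cyp3a enzyme of mouse liver, had 8.545, 8.562 and 8.887 on the CGP arrays and 9.971, 9.493 and 9.527 on the control arrays. It was 2.00-fold lower, with a wider spread than most (log2 fold change -0.999, SE 0.142, limma adjusted p = 0.00893). Cyp3a25 averaged 7.500 ± 0.0901 on the CGP arrays and 8.272 ± 0.162 on the control arrays (SD, n = 3 each), 1.71-fold lower (limma adjusted p = 0.00252).

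Cyp3a13 averaged 6.331 ± 0.194 on the CGP arrays, 2 of them under background, and 6.942 ± 0.113 on the control arrays. It was at least 1.36-fold lower (limma adjusted p = 0.018), a call lost without control array 3 (adjusted p = 0.0631) or CGP array 2 (adjusted p = 0.0819). Cyp3a44, known as female-biased in mouse liver, averaged 6.035 ± 0.243 on the CGP arrays, all under background, and 6.611 ± 0.244 on the control arrays, 2 of them under it (-0.58, limma adjusted p = 0.0836). The arrays of the groups did not overlap for any of the 4 genes, with CGP lower, where 12.6% of all genes were so separated. Cyp3a44, Cyp3a11 and Cyp3a25 are direct neighbours of 1 subfamily, and whether their probe sets take up each other's signal was not tested.

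The 3 tested Cyp4a genes were lower together. These fatty acid hydroxylases are textbook targets of the fatty acid receptor PPARα in liver and kidney. Cyp4a31 had 8.392, 8.526 and 8.698 on the CGP arrays and 9.779, 9.548 and 9.556 on the control arrays, 2.13-fold lower (log2 fold change -1.09, SE 0.0928, limma adjusted p = 0.000525). Cyp4a14 averaged 10.87 ± 0.0846 on the CGP arrays and 11.77 ± 0.0207 on the control arrays, 1.86-fold lower (SD, n = 3 each; limma adjusted p = 0.000112). Cyp4a10 averaged 10.53 ± 0.141 on the CGP arrays and 11.42 ± 0.074 on the control arrays, 1.85-fold lower (SD, n = 3 each; limma adjusted p = 0.000604). The 3 genes follow each other directly on chromosome 4, and whether their probe sets take up each other's signal was not tested.

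Of the other 8 tested genes of family 4, 1 was lower. Cyp4b1, a fatty acid hydroxylase known from lung and kidney that lies close to the Cyp4a genes, had 9.983, 9.901 and 9.885 on the CGP arrays and 9.938, 9.980 and 9.916 on the control arrays. Its groups overlapped, and its 95% interval was -0.13 to 0.09 (log2 fold change -0.02, limma adjusted p = 0.838). The lower gene was among the 7 Cyp4f genes, whose enzymes inactivate leukotrienes and shorten vitamin E side chains. Cyp4f15 had 6.935, 7.171 and 6.923 on the CGP arrays and 7.604, 7.437 and 7.517 on the control arrays, 1.42-fold lower (log2 fold change -0.51, SE 0.0787, limma adjusted p = 0.0132). The Cyp4f15 call was lost without control array 3, with an adjusted p of 0.0601, and without CGP array 1 or 3, with values of 0.0574 and 0.0735. The other 6 ranged from -0.29 for Cyp4f14 (limma adjusted p = 0.0746) to 0.08 for Cyp4f39 (both means under background).

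**Figure D3:**
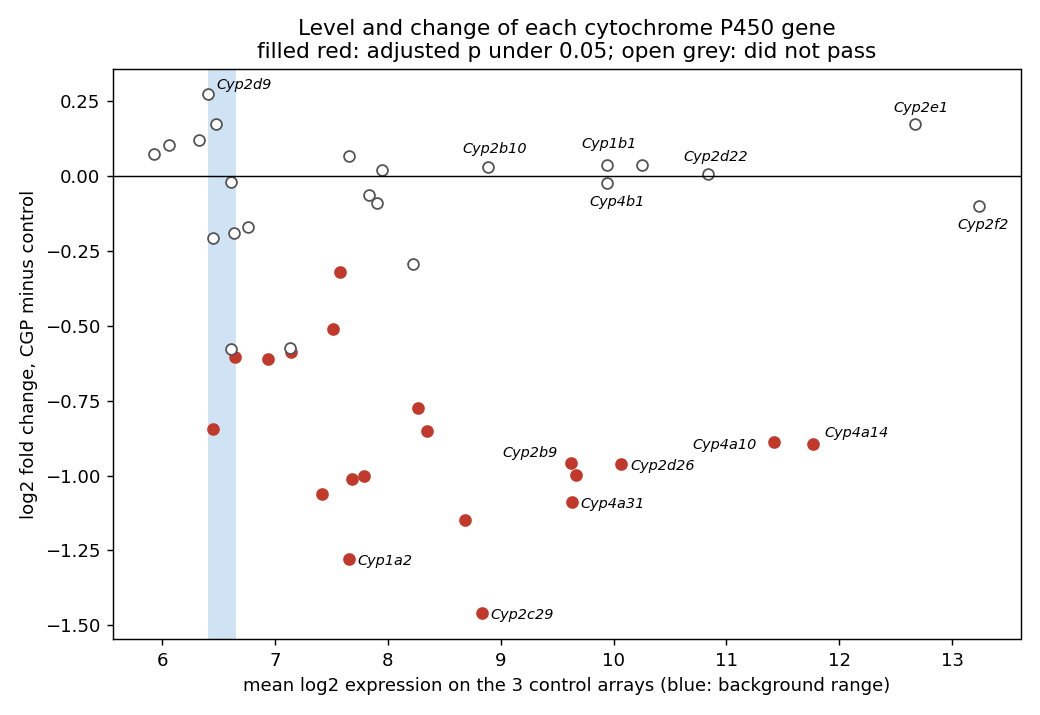
Log2 fold change (CGP minus control, vertical axis) of each P450 gene against its mean log2 expression on the 3 control arrays (horizontal axis), with the range of array backgrounds in blue. Filled red points passed at an adjusted p under 0.05. Brightness cannot be ranked between probe sets. The lower genes run from the background range up to 11.77 for Cyp4a14, and genes that did not pass from below the background range up to 13.24 for Cyp2f2.

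Genes that differ between the sexes in mouse liver were few among those tested. Of 9 female-biased liver P450 genes listed, 3 were tested. Cyp2b9 was lower, Cyp3a44 did not pass, and Cyp2b13 was called lower with the limits given above (tested only through its control arrays, and lost without CGP array 1 or 3). Of 3 male-biased genes, 1 was tested, Cyp2d9, which did not pass. Growth hormone receptor (Ghr), through which growth hormone sets this sex bias, averaged 9.480 ± 0.0715 on the CGP arrays and 9.131 ± 0.114 on the control arrays (SD, n = 3 each; log2 fold change 0.35, limma adjusted p = 0.0376). Bcl6, a repressor in the same pathway, averaged 9.132 ± 0.0235 on the CGP arrays and 8.831 ± 0.0252 on the control arrays (0.30, limma adjusted p = 0.00949). Stat5a (-0.03), Stat5b (0.04) and Cux2 (-0.02), which act in the same pathway, did not pass.

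Of 20 tested regulators of P450 genes, 3 were lower, 2 were higher (Ghr and Bcl6) and 15 did not pass. Among all genes, 1.7% were called lower and 1.94% higher. Hnf4a, the nuclear receptor whose letters are shown in the promoter windows, had 7.951, 8.031 and 8.002 on the CGP arrays and 8.483, 8.527 and 8.488 on the control arrays. The groups were well apart (log2 fold change -0.50, SE 0.0452, limma adjusted p = 0.000709). Foxa3, a forkhead factor of hepatocytes, averaged 6.416 ± 0.041 on the CGP arrays, 2 of them under background, and 6.822 ± 0.0376 on the control arrays, and was at least 1.26-fold lower (limma adjusted p = 0.00301). Nr1i3, which encodes CAR, averaged 7.014 ± 0.133 on the CGP arrays and 7.449 ± 0.122 on the control arrays (-0.43, limma adjusted p = 0.0364).

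The other receptors did not pass. Nr1i2, which encodes PXR, had both means under background (log2 fold change -0.23, limma adjusted p = 0.197). Ahr, the aryl hydrocarbon receptor, was at 8.273 ± 0.0531 on the CGP arrays and 8.381 ± 0.105 on the control arrays (-0.11, limma adjusted p = 0.394), and its partner Arnt at 10.18 ± 0.052 on the CGP arrays and 10.13 ± 0.016 on the control arrays (0.05, limma adjusted p = 0.582). Ppara was at 8.274 ± 0.00755 on the CGP arrays and 8.147 ± 0.0169 on the control arrays (0.13, limma adjusted p = 0.151). PPARα targets outside the P450 genes went both ways among 12 tested, with 2 lower, Ehhadh (-0.30, limma adjusted p = 0.0271) and Fabp1 (-0.56, limma adjusted p = 0.0168), 1 higher, Pdk4 (0.47, limma adjusted p = 0.000692), and 9 not passing. The shares called over all genes were 1.7% lower and 1.94% higher. Fabp1 is also in the hepatocyte list.

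Genes for proteins on which P450 enzymes depend mostly did not pass. Of 7 tested electron partners, 0 passed in limma (1 higher at an unadjusted p under 0.05), and their median log2 fold change was 0.03. Of all 14727 genes, 1549 were higher at that unadjusted threshold, and at the adjusted one 1.7% were called lower and 1.94% higher. Cytochrome b5 (Cyb5a), which hands electrons to P450 enzymes, averaged 11.99 ± 0.0183 on the CGP arrays and 12.0 ± 0.048 on the control arrays (SD, n = 3 each; limma adjusted p = 0.947). Por, the P450 reductase, was not tested here. Of 7 tested genes of haem synthesis, 1 was lower, Cpox, which averaged 8.096 ± 0.0331 on the CGP arrays and 8.376 ± 0.0356 on the control arrays (-0.28, limma adjusted p = 0.0167). Alas1, which catalyses the committed step of haem synthesis, averaged 12.78 ± 0.0451 on the CGP arrays and 12.75 ± 0.016 on the control arrays (0.03, limma adjusted p = 0.711).

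P450 genes of other families gave 4 lower, 1 higher and 9 not passing among 14 tested, with a median of -0.06. The shares called over all genes were 1.7% lower and 1.94% higher. The lower genes of other P450 families were Cyp7a1 (at least 2.53-fold, with all 3 CGP arrays under background), Cyp8b1 (log2 fold change -0.90) and Cyp27a1 (-0.35), enzymes of bile acid synthesis, and Cyp17a1 (-1.31), a steroid hydroxylase. Cyp11b2, the aldosterone synthase, was higher (0.50). Of the steroid synthesis enzymes Cyp11a1, Cyp11b1 and Cyp21a1, none passed (0.05, 0.07 and 0.04, limma, also at an unadjusted p under 0.05). Whether the P450 genes of families 1 to 4 differed from these was not tested.

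**Figure D4:**
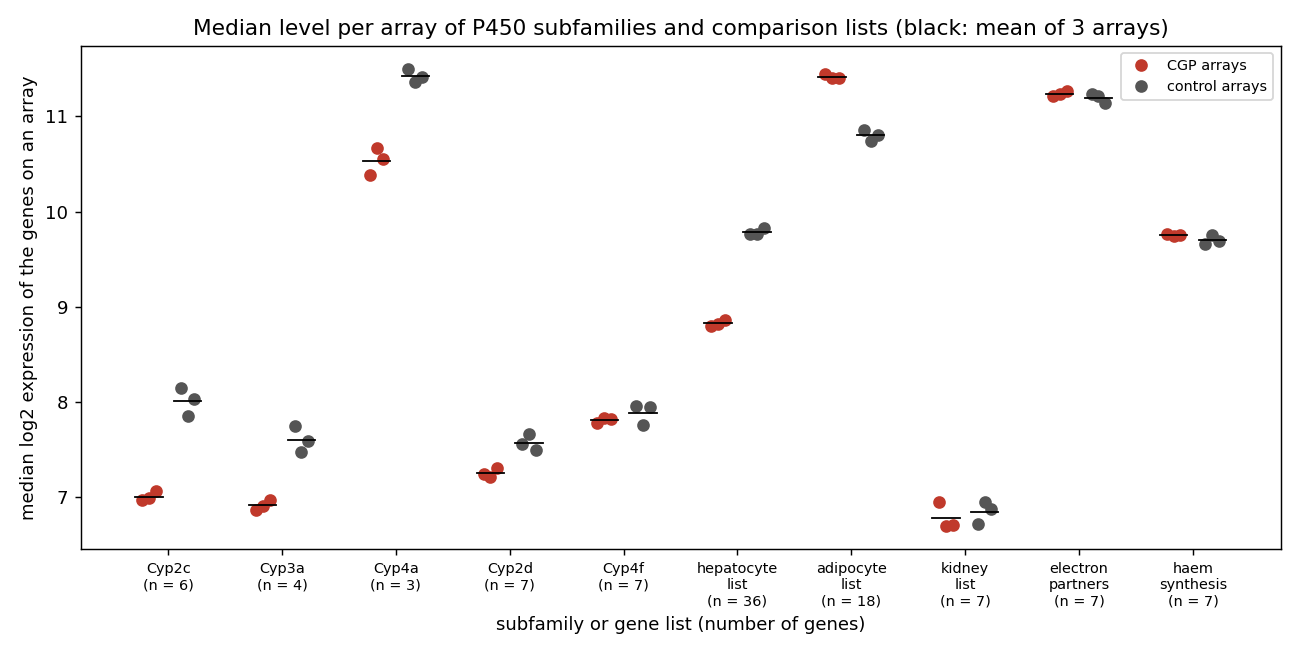
Median log2 expression over the genes of a subfamily or list (horizontal axis, with the number of genes) on each array, CGP arrays in red left of control arrays in grey, with the mean of 3 arrays in black. The Cyp2c, Cyp3a, Cyp4a, Cyp2d and hepatocyte medians were lower on every CGP array than on every control array, the adipocyte median was higher, and those of Cyp4f, kidney, electron partner and haem synthesis genes overlapped. The Cyp2d median is the value of Cyp2d40 on every array, and 5 of the 7 Cyp2d genes did not pass.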

How the data were processed

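Adrenal RNA of 2 groups was measured on 6 Affymetrix whole-transcript arrays, 3 of each group, and groups were taken from the sample titles. The authors deposited log2 expression values for 25150 probe sets. Per the submitters' processing notes, which give no versions, Partek and RMA were used, the second being a method that subtracts background, gives all arrays 1 distribution of values and combines the probes of each set. The genome build behind the values is not given in the sources used here. These values were used as they were, and a shift shared by most genes cannot be seen after such scaling. For arrays, their number limits the precision.

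Gene names came from the platform annotation. Probe sets with exactly 1 symbol numbered 16769, and those that also reached a log2 value of 6 on 3 or more arrays (16034, of 14727 genes) were tested, and the brightest probe set stood for a gene. CGP and control arrays were compared by lmFit and eBayes of limma 3.58.1 under R 4.3.3, with a two-sided test and no covariates, with Benjamini-Hochberg adjustment over all 16034 probe sets, and an adjusted p under 0.05 was called. Background was, per array, the 75th percentile over 127 sensory receptor probe sets (olfactory, vomeronasal, trace amine). Where a called gene had arrays of the lower group under it, they were set to it and the fold is given as a bound. No fold is given for a called gene with both means under it. Log2 fold changes, their intervals, medians and ranges come from the deposited values without this step, also for genes under background, where they do not measure a fold. SE is the moderated standard error and SD the spread over 3 arrays. The script was tested on simulated data.

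The members, the gene lists and the promoter patterns were chosen with earlier results of these data known. The naming rule gave array values for the member with the largest change of each subfamily and for the 8 lowest and 5 highest log2 fold changes. Alternatives covered the filter, normalisation, variance model, array weights, array number as a block, the choice of probe set and each array left out. Plots were drawn with matplotlib 3.10.9 in Python 3.11.15.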

Additional observations from a re-analysis of the deposited data

How the results depend on the processing

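The count of lower P450 genes, 20, was 17 to 24 under all other settings and 17 to 22 with an array left out. At 1.5-fold the count of 18 was 15 to 18 under the other settings, 15 to 17 with an array left out, and 14 when arrays under background were set to background, an alternative chosen after seeing the data. Of the 20 lower genes, 16 passed under every setting tried and without any single array. The other 4, Cyp2b13, Cyp2d40, Cyp3a13 and Cyp4f15, lost the call in 1 or more, and 8 of the 23 that did not pass gained one. The count of higher genes, 0, was 1 with the filter at a log2 of 7 (Cyp2e1), 1 with a variance trend and robust prior (Cyp2e1), 2 with array weights (Cyp2e1 and Cyp2d9), and 0 to 1 with an array left out (Cyp2d9 without control array 1). Median log2 fold changes moved most in small subfamilies. That of Cyp2b, -0.84, was -0.54 without the filter and -0.46 with the filter at 7, where other genes enter or leave, -0.69 with array weights and -0.96 to -0.68 with an array left out. The -0.84 is the value of Cyp2b13 itself, which entered the test only through its control arrays. Both means of Cyp2b13 lay under background, so this median measures no fold. With the filter at 7, which leaves fewer genes, the medians were -0.59 for Cyp2j (0.12 otherwise, with only Cyp2j5 left), -0.89 for Cyp3a (-0.69 otherwise) and -0.59 for all members (-0.32 otherwise). Cyp1a2, Cyp2a12, Cyp2c50, Cyp2c54 and Cyp2j5 passed the filter at 7 only through their control arrays and so had to be lower. With an array left out, the median of Cyp2c was -1.10 to -0.92 and that of Cyp2d -0.29 to -0.14. The Cyp2d median with all arrays, -0.21, is the value of Cyp2d13, which had both means under background. Arrays of the 2 groups share replicate numbers in their titles, but same-numbered arrays did not deviate together (correlations -0.36, -0.17 and -0.12), so the numbers give no pairing. With the number as a replicate block, 17 genes were called, and Cyp2d40 (adjusted p = 0.126), Cyp3a13 (0.0764) and Cyp4f15 (0.0688) did not pass in limma. Brightness near background limits Cyp2b13, Cyp2c70, Cyp3a13 and Cyp3a44, among others. Cyp1a2 and Cyp2c54, with all 3 CGP arrays under background, and Cyp2j5, with 1, have folds given only as bounds.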

Other observations

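A further 7 probe sets carry several gene symbols, with at least 1 of P450 families 1 to 4, and entered no comparison above. They were not tested. The probe set shared by Cyp3a41b, Cyp3a44 and Cyp3a41a, of which Cyp3a41 genes are known as female-biased in mouse liver, had 7.324, 7.832 and 7.605 on the CGP arrays and 9.080, 9.216 and 9.357 on the control arrays, a log2 difference of -1.63. A second one that also lists Cyp3a11 had 7.260, 7.747 and 7.369 on the CGP arrays and 9.009, 9.050 and 9.123 on the control arrays (-1.60). The probe set of Cyp2a5 and Cyp2a4, of which Cyp2a4 is a steroid hydroxylase higher in female mouse liver, had 6.925, 7.117 and 7.184 on the CGP arrays and 8.231, 8.088 and 8.112 on the control arrays (-1.07).

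The probe set of Cyp4a32, Cyp4a31 and Cyp4a10 had 10.18, 10.28 and 10.43 on the CGP arrays and 11.58, 11.35 and 11.50 on the control arrays (-1.19). That of Cyp2c69, Cyp2c67, Cyp2c68 and Cyp2c40 had 6.721, 6.846 and 6.817 on the CGP arrays and 7.564, 7.386 and 7.623 on the control arrays (-0.73). In all of these probe sets the groups did not overlap, with CGP lower, where 12.6% of all genes were so separated. Some of them list the same genes as each other or as probe sets above, so they are not separate observations. The probe set of Cyp3a59, Cyp3a57 and Cyp3a25 was under background on all arrays (-0.69), and that of Cyp4v3 and Klkb1 overlapped between groups (-0.11).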
